A study of Homo sapiens with 6 samples.

Results

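The 6 genes described here are MSH3, MSH6, MLH3, PMS1, PMS2 and EXO1, chosen by symbol as members of the DNA mismatch repair pathway. They are 6 of 30618 genes in the count table, and 6 of 6 were among the 16749 genes with enough counts to be tested. The RNA came from ARPE-19, an established human line of retinal pigment epithelial cells kept in 50 mM glucose. In the NC group, 3 libraries came from cells given a negative control siRNA. In the siEIF1 group, 3 libraries came from cells given an siRNA against EIF1, a factor that helps ribosomes select the start codon. Both groups shared the cell line and the glucose level, and no library from cells at a normal glucose level was analysed here. As a model, this is transient silencing of 1 gene with 1 siRNA sequence in 1 cell line. Polyadenylated RNA was sequenced from strand-specific libraries, and counts of reads mapped to 1 place were compared between the groups.

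Mismatch repair removes base mispairs and small insertion or deletion loops left behind by DNA polymerases. MutS proteins find the error, MutL proteins are recruited and nick the new strand, and an exonuclease such as EXO1 removes the stretch that holds the error before it is filled in again. MSH6 and MSH3 are alternative subunits of the MutS dimers, MSH6 for base mispairs and MSH3 for larger loops, while PMS2, PMS1 and MLH3 are alternative subunits of the MutL dimers. Inherited loss of this pathway is known for predisposing to colorectal cancer, and dividing cells use it mainly behind the replication fork.

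EXO1 fell most among the 6 genes, to 31.6% of its NC level, and PMS1 and MSH6 fell by smaller amounts. MSH3, PMS2 and MLH3 did not pass the test. The 6 genes thus split into 3 lower, 0 higher and 3 not passed at an adjusted p under 0.05 (edgeR quasi-likelihood test, Benjamini-Hochberg adjustment over all tested genes). Over all tested genes, 20.6% passed, 10.4% lower and 10.2% higher in siEIF1. Without siEIF1 replicate 2, the genes that passed numbered 1124 lower and 1118 higher, against 1744 and 1702 with all libraries, and the members stayed at 3 lower and 0 higher. In this fit, only EXO1 of the 6 also had a fold change below 0.5, a pair of limits that 1.31% of tested genes met in that direction. The median log2 fold change of the members was -0.21, beside 0.0033 over all tested genes. In these bulk libraries, fewer cells that express a gene and less RNA per cell cannot be told apart.

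Totals ran from 26499929 to 31431479 counts per library. Levels are given as CPM, counts per 1000000 of a library. EIF1 itself had 1227 to 1305 CPM in NC and 103 to 109 in siEIF1, a log2 fold change of -3.58 (SE 0.0549, edgeR adjusted p = 1.08e-13). Of 12 pigment epithelium markers, 10 were analysed here, as RPE65 and TTR were not among the genes counted. These 10 summed to between 3160 and 3300 CPM in NC and between 3185 and 3581 in siEIF1. Among them OTX2, MITF, BEST1, KRT8, KRT18 and CRYAB had 1369 counts or more in every library, PMEL had 25 to 40, and the pigment genes TYRP1 and DCT were under the filter at 0 to 15 counts. Of the 8 tested, 4 rose and 0 fell, beside 10.2% and 10.4% of all tested genes. RLBP1, a retinoid-binding protein, had the largest change of these, from 11 to 17 counts in NC to 42 to 49 in siEIF1 (log2 fold change 1.55, edgeR adjusted p = 0.00102). Markers of endothelial, immune, neural and photoreceptor cells, with 9 of 12 analysed here, summed to between 1.69 and 3.01 CPM, and the only tested one, KDR, did not pass (log2 fold change -0.27, edgeR adjusted p = 0.491).

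Sequence near the transcription start is shown for the 4 members whose RefSeq promoter window held an E2F-type stretch. Such stretches were looked for because several replication genes that fell in the same cells, MCM5 among them, are known E2F targets. Windows ran from 250 bases before to 50 bases after each annotated start (RefSeq, GRCh38.p14), and 6 of 6 members were matched by symbol. The letters searched were TTTCCCGC, TTTCGCGC, TTTGCCGC and TTTGGCGC on both strands, and capitals mark the matching bases. All 4 lines are 30 bases, written 5′ to 3′ on the strand of the gene.
EXO1: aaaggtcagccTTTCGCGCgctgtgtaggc
MSH6: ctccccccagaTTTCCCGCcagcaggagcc
MSH3: gcggtcaagTTTGGCGCGAAAttgtggccg
PMS2: cgggaagtattTTTGCCGCcccgcccggaa

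In EXO1 the stretch lay at chr1:241848197-241848226 on the plus strand, with the match at bases 5 to 12 counted from the start, in the first of 2 windows. In MSH6 it lay at chr2:47783137-47783166 on the plus strand, with the match at bases 4 to 11, in the first of 4 windows. The MSH3 line, at chr5:80654536-80654565 on the plus strand, held 2 overlapping matches on opposite strands, from 107 to 96 bases before the start. The PMS2 line, at chr7:6009131-6009160 on the minus strand, had its match 43 to 36 bases before one annotated start and 100 to 93 before the other. PMS1 and MLH3 had no match in their windows. Such letters stood in 3.31% of all 35116 windows of the same length and in at least 1 window of 6.49% of the 11225 tested genes matched by symbol. Of the 4 genes with a match, EXO1 and MSH6 fell, while MSH3 and PMS2 did not pass the test. Without a match, PMS1 fell and MLH3 did not pass. Whether a match went with a fall was not tested. A second set of letters, TTTGAA on both strands (the core of the cell cycle homology region), stood in 15.2% of all windows and in 0 windows of the members. A match describes letters only and is not evidence of binding.

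EXO1 (ENSG00000174371.17) is the exonuclease of the pathway and also trims DNA ends in recombination. The gene spans positions 241847967 to 241895148 of chromosome 1 on the plus strand, with 16 exons in its canonical transcript (GRCh38, GENCODE 44). It had 132, 130 and 124 counts in NC replicates 1 to 3, and 45, 44 and 43 in siEIF1. In CPM, scaled by the TMM factor of each library, these were 4.97, 4.57 and 4.39 against 1.45, 1.51 and 1.44. Every siEIF1 library was below every NC library, and the gap between the groups was far wider than the spread within either. The means were 4.64 ± 0.298 and 1.47 ± 0.0400 CPM (SD, n = 3 per group), a 3.16-fold lower level, with a log2 fold change of -1.66 (SE 0.155, 95% interval -1.99 to -1.32, edgeR adjusted p = 9.08e-06). Only 57 tested genes, 0.340% of all, had a more negative fold change. EXO1 was scarce to begin with, at 0.920 ± 0.0529 FPKM in NC and 0.287 ± 0.00577 in siEIF1 (fragments per kilobase, scaled to the mapped fragments of the library; SD, n = 3). At this level a pseudocount shrinks the change, which was -0.58 on the log2(FPKM + 1) scale, short of the fold limit, and -1.40 on the log2(FPKM + 0.1) scale.

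**Figure D1:**
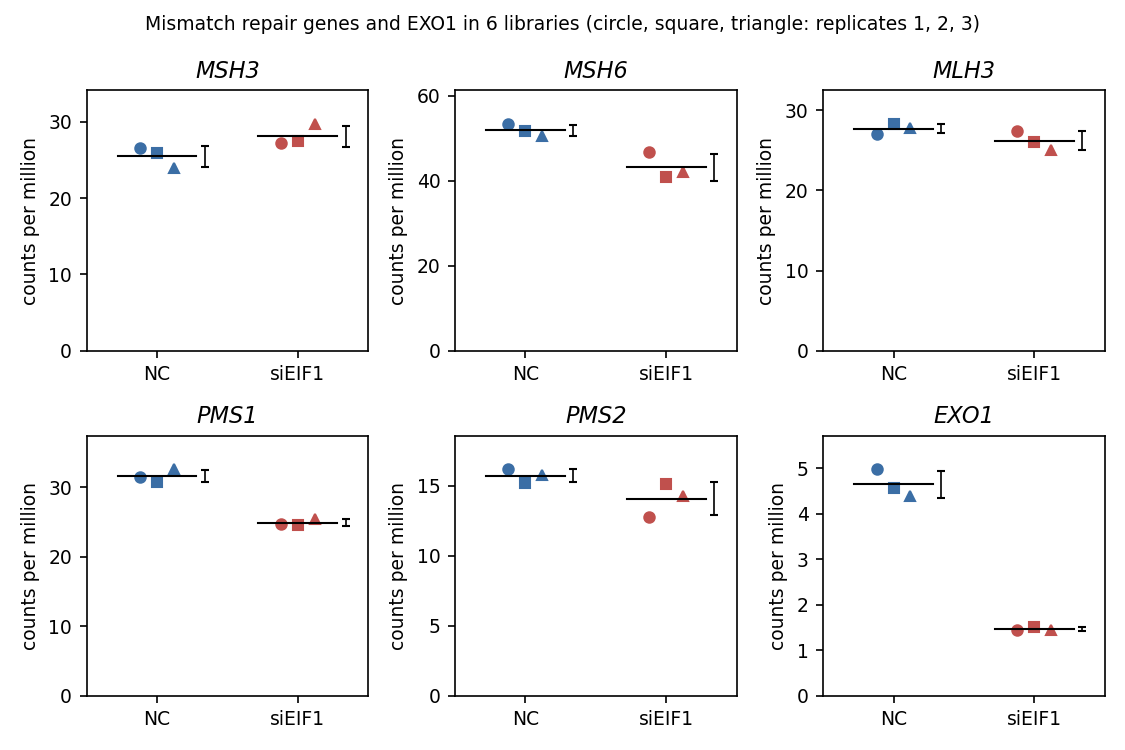
CPM of each member in the 3 NC (blue) and 3 siEIF1 (red) libraries, with the group mean as a line and its SD as a bar beside it (n = 3), each panel on its own linear axis from 0. EXO1 drops from between 4.39 and 4.97 to between 1.44 and 1.51, PMS1 and MSH6 are lower in all siEIF1 libraries, and the groups overlap in MLH3.

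PMS1 (ENSG00000064933.18), a MutL subunit with no settled part in repair itself, fell by 0.34 on the log2 scale. It lies on chromosome 2 from 189784085 to 189877629, plus strand, with 13 exons. Its counts were 838, 876 and 921 in NC and 769, 715 and 760 in siEIF1. In CPM, NC had 31.5, 30.8 and 32.6 and siEIF1 had 24.7, 24.6 and 25.5, so the lowest NC library stood above the highest siEIF1 library. The siEIF1 mean was 78.8% of the NC mean (24.9 ± 0.461 against 31.6 ± 0.904 CPM, SD, n = 3). The 95% interval of the log2 fold change was -0.47 to -0.22 (SE 0.0587, edgeR adjusted p = 0.00110). In CPM, PMS1 had the narrowest siEIF1 spread of all members relative to its mean, while in FPKM that of EXO1 was narrower.

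MSH6 (ENSG00000116062.17), the MutS subunit for base mispairs, also fell. Its canonical transcript covers positions 47783145 to 47806953 of chromosome 2 on the plus strand, with 10 exons. Counts were 1414, 1468 and 1431 in NC and 1450, 1185 and 1254 in siEIF1, or 53.2, 51.6 and 50.6 against 46.7, 40.7 and 42.0 CPM. The groups did not overlap, and siEIF1 replicate 1 stood closest to NC. The means were 51.8 ± 1.32 and 43.1 ± 3.12 CPM (SD, n = 3), with a log2 fold change of -0.26 (SE 0.0605, 95% interval -0.39 to -0.13, edgeR adjusted p = 0.00757). When limma was run on log2(FPKM + 1) over every listed gene, including those of low value, MSH6 was at -0.22 with an adjusted p of 0.0843 and no longer passed.

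MSH3 (ENSG00000113318.11), the MutS subunit for larger loops, did not pass the test. It spans 80654652 to 80876815 on chromosome 5, plus strand, with 24 exons. Counts were 705, 738 and 675 in NC and 844, 797 and 885 in siEIF1. In CPM, NC had 26.5, 25.9 and 23.9, and siEIF1 had 27.2, 27.4 and 29.6, which placed all siEIF1 libraries slightly above NC. In FPKM the groups overlapped, since siEIF1 replicate 2 (4.06) was under NC replicate 1 (4.07). The log2 fold change of 0.14 (SE 0.0665, 95% interval -0.0019 to 0.29) had an edgeR adjusted p of 0.159. The interval leaves room for a rise of up to 0.29 on the log2 scale and for almost no fall.

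PMS2 (ENSG00000122512.16) is the MutL subunit that carries the nicking activity of the main repair dimer. It lies on chromosome 7 from 5970925 to 6009130, minus strand, with 15 exons. It had 16.1, 15.2 and 15.7 CPM in NC and 12.8, 15.1 and 14.3 in siEIF1 (429, 433 and 445 counts against 397, 440 and 426). The siEIF1 libraries were lower, but replicate 2 came within 0.1 of the lowest NC library. The log2 fold change was -0.16 (SE 0.0805, 95% interval -0.33 to 0.013, edgeR adjusted p = 0.189) and did not pass.

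PMS2 has many near-identical pseudogene copies, so reads may be split among them, and its own value is uncertain. The table held 13 rows whose symbol starts with PMS2. The largest copy, PMS2P1, had 857, 873 and 898 counts in NC and 857, 900 and 877 in siEIF1, about double PMS2 itself, with a log2 fold change of -0.11 (edgeR adjusted p = 0.259). PMS2CL had 128 to 186 counts in the 6 libraries, with a log2 fold change of -0.05, and PMS2P3 had 108 to 141, with 0.14. None of the tested copies passed, the lowest adjusted p being that of PMS2P1. With all copies added to PMS2, the log2 fold change was -0.08 (SE 0.0549, edgeR adjusted p = 0.324). This sum does not bring back the reads left out, and most of its counts come from the copies.

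MLH3 (ENSG00000119684.16), a MutL subunit best known for its part in meiotic crossing over, showed the smallest difference. It lies on chromosome 14 from 75013769 to 75051532, minus strand, with 13 exons. CPM were 27.1, 28.2 and 27.8 in NC and 27.5, 26.1 and 25.1 in siEIF1, and siEIF1 replicate 1 lay inside the NC range. The log2 fold change was -0.08 (SE 0.0616, 95% interval -0.21 to 0.053, edgeR adjusted p = 0.410). MLH3 was the only member whose groups overlapped in CPM. The other 5 of 6 did not overlap, a pattern that 37.1% of all tested genes showed in one direction or the other.

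On the FPKM scale, which divides by length, the levels in NC ran from PMS1 (4.76) through MSH3 (3.91), MSH6 (3.88), MLH3 (2.72) and PMS2 (2.07) to EXO1 (0.920). MSH3 and MSH6 overlapped between libraries, and all other neighbours in this order were separate. In siEIF1 the order was MSH3 (4.26), PMS1 (3.70), MSH6 (3.19), MLH3 (2.53), PMS2 (1.82) and EXO1 (0.287), with no overlap between neighbours. The order between genes depends on the lengths used, most of all for MSH6. The deposited counts and FPKM together imply a length of 13441 bases for MSH6 against 4265 for its canonical transcript, a ratio of 3.15 where the median gene had 1.71, while the other members lay between 1.31 and 2.12. CPM per kilobase of canonical transcript (a scale chosen after seeing the data) put MSH6 first in both groups, at 12.1 ± 0.309 in NC and 10.1 ± 0.731 in siEIF1 (SD, n = 3). PMS1 then followed with 10.0 and 7.90, and MSH3 with 5.73 and 6.32, so that on this scale PMS1 stayed above MSH3 in siEIF1 as well. Differences between the groups within 1 gene do not depend on this length.

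Since MSH6 and MSH3 share a partner and define the alternative MutS dimers, their ratio was taken within each library. In FPKM, MSH6 to MSH3 was 0.975, 0.967 and 1.03 in NC and 0.835, 0.724 and 0.691 in siEIF1. The ratio was lower in all siEIF1 libraries, with means of 0.992 ± 0.0355 and 0.750 ± 0.0758 (SD, n = 3) and a log2 difference of -0.41. Per kilobase of canonical transcript the ratio was 2.12 ± 0.0742 in NC and 1.60 ± 0.164 in siEIF1, so MSH6 was either about level with MSH3 or well above it in NC, according to the length used. For the MutL pair, PMS2 to PMS1 was 0.448, 0.432 and 0.423 in NC and 0.452, 0.539 and 0.490 in siEIF1, with a log2 difference of 0.18. Here siEIF1 replicate 1 lay only just above the NC libraries, and without siEIF1 replicate 2 the difference was 0.12. EXO1 relative to the geometric mean of the other 5 members was 0.292, 0.275 and 0.264 in NC and 0.0943, 0.1004 and 0.0951 in siEIF1, a log2 difference of -1.52. For these 3 ratios the groups did not overlap and the two-sided exact permutation p was 0.1, before and after Benjamini-Hochberg adjustment, which is the smallest that 3 against 3 libraries can give.

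**Figure D2:**
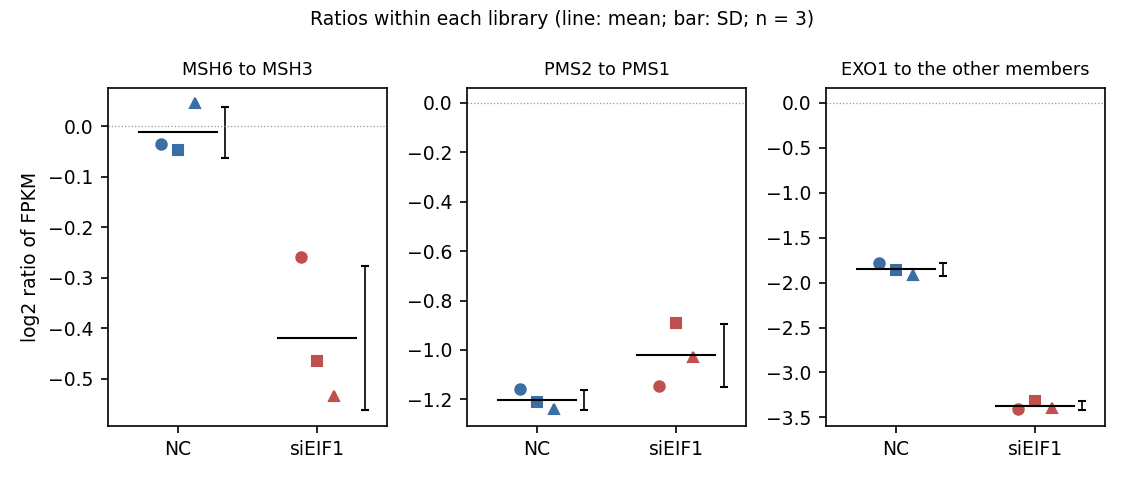
Log2 ratio of FPKM values within each library for 3 ratios, NC in blue and siEIF1 in red (circle, square and triangle for replicates 1, 2 and 3), with the mean as a line and the SD as a bar (n = 3). The log2 difference, siEIF1 minus NC, is -1.52 for EXO1 to the other members, -0.41 for MSH6 to MSH3 with a wide siEIF1 spread, and 0.18 for PMS2 to PMS1.

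The members have close neighbours, some of which start from the same stretch of DNA in the opposite direction. PMS1 and ORMDL1, a regulator of sphingolipid synthesis, start 111 bases apart on opposite strands. Both fell, ORMDL1 by 0.20 on the log2 scale (SE 0.0559, edgeR adjusted p = 0.0204) and PMS1 by 0.34. PMS2 and AIMP2, a scaffold of the aminoacyl-tRNA synthetase complex, start 223 bases apart on opposite strands. AIMP2 fell by 0.36 (SE 0.0618, edgeR adjusted p = 0.00117), from between 39.2 and 44.8 CPM to between 32.1 and 32.5, while PMS2 did not pass. FBXO11, which overlaps MSH6 on the opposite strand, was at -0.15 (edgeR adjusted p = 0.0748), ACYP1, which lies 1775 bases from MLH3 on the same strand, at -0.34 (0.164), and RSPH10B, 235 bases from PMS2, at 0.09 (0.845). The lncRNA RP11-553N16.6, which starts 76 bases from EXO1 on the opposite strand, had 0 to 5 counts and was not tested. The strand setting of the counting is not given in the sources used here, so reads where MSH6 and FBXO11 overlap cannot be assigned with certainty.

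**Figure D3:**
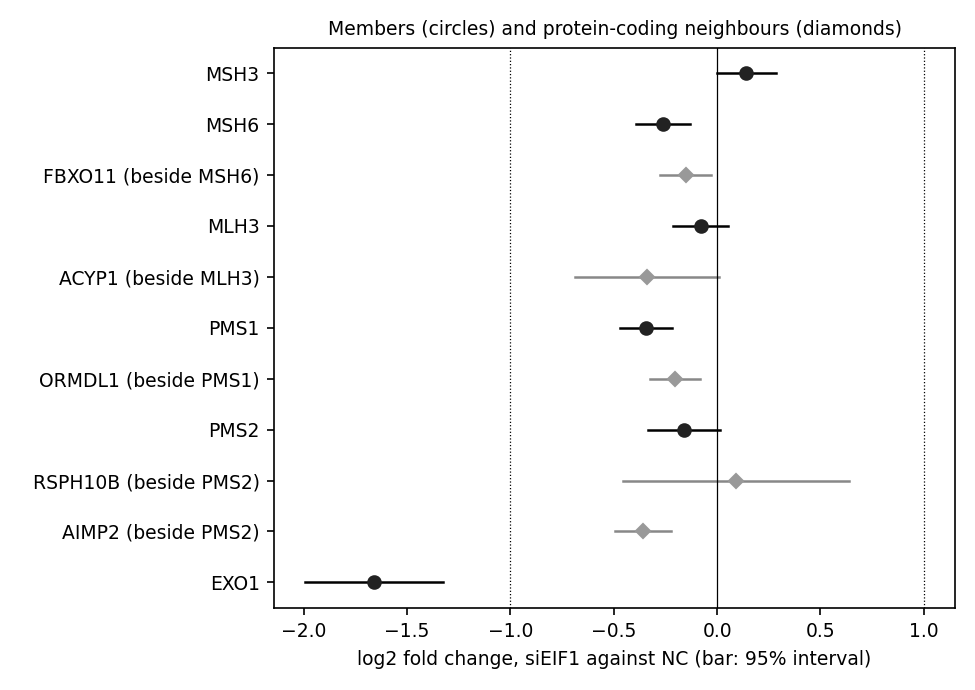
Log2 fold change of siEIF1 against NC with its 95% interval (edgeR) for the 6 members (black circles) and their tested protein-coding neighbours reported here (grey diamonds), dotted lines marking a log2 fold change of 1 either way. EXO1 (-1.66) stands apart from the other members, and AIMP2 (-0.36) lies below its neighbour PMS2 (-0.16), with intervals that overlap.

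Around the 6 genes stand the factors that finish the repair: the clamp PCNA, its loader RFC, the single-strand binding protein RPA, polymerase delta and DNA ligase 1. Of 15 genes counted here, with the mitochondrial protein SSBP1 added to these factors, 11 fell, 1 rose and 3 did not pass. Their median log2 fold change was -0.42, beside 0.0033 over all tested genes, of which 10.4% fell and 10.2% rose. RPA2, an RPA subunit, went from 15.6 ± 0.717 to 6.31 ± 0.357 FPKM (SD, n = 3; log2 fold change -1.28, edgeR adjusted p = 1.29e-07), and the clamp loader subunit RFC4 from 4.01 ± 0.121 to 1.78 ± 0.0819 (-1.15, 1.32e-06). POLD4, a small subunit of polymerase delta, rose by 0.21 on the log2 scale (edgeR adjusted p = 0.0300). SSBP1, the mitochondrial single-strand binding protein, was at 0.02 (0.872). These proteins serve DNA replication as well as repair.

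Partners and relatives of the members were divided, where 10.4% of all tested genes fell and 10.2% rose. Of 13 genes, 12 were tested, and 5 fell, 0 rose and 7 did not pass (median log2 fold change -0.19). The helicases HELLS and MCM8 were at -1.39 and -1.32 (edgeR adjusted p = 1.39e-06 and 5.35e-06), with FPKM of 1.09 ± 0.0493 and 1.03 ± 0.120 in NC against 0.410 ± 0.0608 and 0.407 ± 0.0306 in siEIF1 (SD, n = 3). MCM9, the partner of MCM8, was at 0.07 (0.683), and SETD2, the histone methyltransferase whose mark recruits MSH6 to chromatin, at 0.07 (0.444). The meiotic MutS gene MSH4 had 0 to 9 counts and was not tested. Among nucleases and end resection factors, the company of EXO1, 6 of 9 tested genes fell, 0 rose and 3 did not pass (median -0.28). FEN1, the flap endonuclease related to EXO1, went from 9.96 ± 0.344 to 4.54 ± 0.0961 FPKM (SD, n = 3; log2 fold change -1.11, edgeR adjusted p = 3.77e-07), and GEN1, a resolvase of the same family, fell by 0.54 (0.000362). EXD2 and RAD50 were at 0.13 and 0.08 (edgeR adjusted p = 0.278 and 0.864).

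Genes of DNA synthesis and division moved in these libraries as well, where 10.4% of all tested genes fell and 10.2% rose. In the S phase list of the Seurat package, with the members taken out, 37 of 41 tested genes fell and 0 rose (median log2 fold change -0.97). MCM5 (-1.03) was among them, as was FEN1, also counted among the nucleases. Other genes of the repair lists, such as PCNA and HELLS, were counted in this list too. In the G2/M list 46 of 53 fell and 0 rose (median -1.04), CDK1 at -1.66 and TOP2A at -1.54. The fall of EXO1 was thus larger than the median of either list, while those of PMS1 and MSH6 were smaller. The part of these cell cycle genes in the changes of EXO1, PMS1 and MSH6 was not tested.

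**Figure D4:**
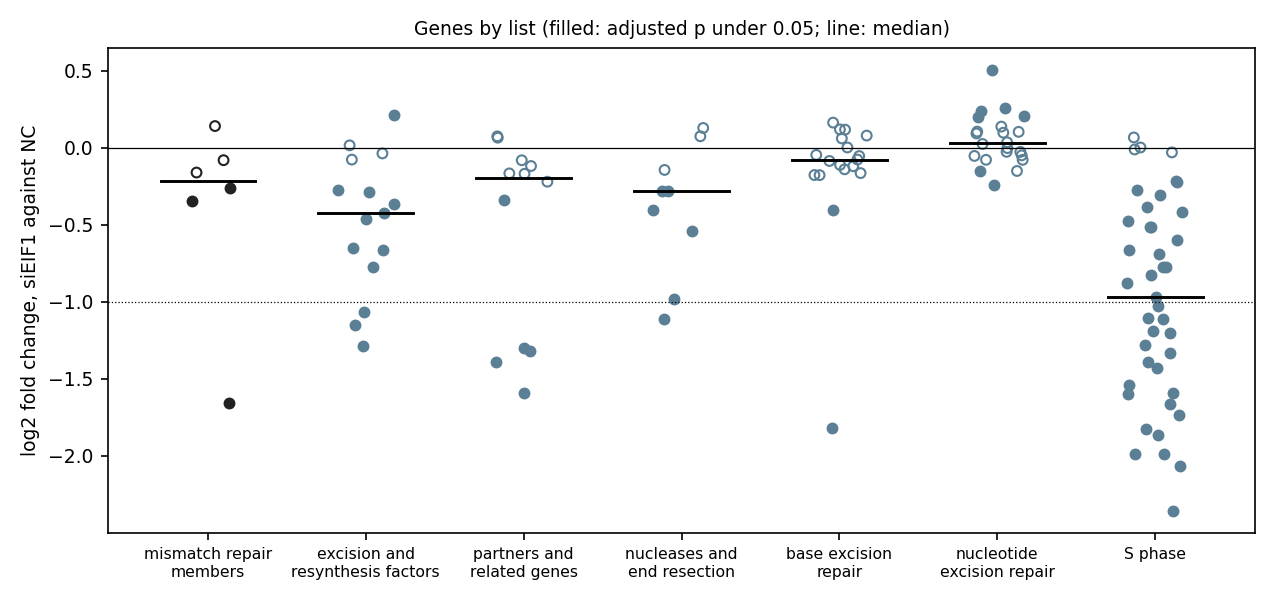
Log2 fold change of siEIF1 against NC for each tested gene by list, filled where the edgeR adjusted p was under 0.05 and open where not, with the list's median as a line and a dotted line at -1. The members have a median of -0.21 with EXO1 apart at -1.66, the excision and resynthesis factors one of -0.42 and the S phase genes one of -0.97. Some genes appear in several lists.

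Genes whose level followed each member over the 6 libraries were ranked by Pearson's r of log2 CPM, among 13382 genes with a mean count of at least 50. For EXO1 these were GADD45A, KLF10 and SGTA (r = 0.999 each), with log2 fold changes of -0.62, -0.44 and -0.95, and 632 genes had an r above 0.95. PMS1 came closest to MCM8, ASB6 and SPOCD1 (0.999 each), with 519 genes above 0.95, and MSH6 to UCHL5 and HNRNPF (0.998 each) and WASHC4 (0.996), with 286. MSH3 had only 22 genes above 0.95, led by TRIM3 and FOXK2 (0.987 each) and TLCD2 (0.984), and MLH3 had 36, led by FOXF2 (0.995), PTS (0.990) and CFDP1 (0.990). PMS2 had 22, led by its own copy PMS2P1 (0.995), KIAA1549 (0.992) and ZNF222 (0.984). These values are descriptions over 6 libraries in 2 groups, so any genes that differ between the groups in the same direction come out alike.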

How the data were processed

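Polyadenylated RNA of 3 NC and 3 siEIF1 libraries of ARPE-19 cells was measured, with groups and replicate numbers taken from the sample titles. The authors trimmed reads with FASTX-Toolkit 0.0.13, aligned them to GRCh38 with HISAT2 and deposited raw counts of uniquely mapped reads per gene. The authors also deposited FPKM values, rounded to 2 decimals, for 30275 of the 30618 genes. The counting program, its strand setting and the annotation are not given in the sources used here, which leaves overlapping, antisense and copied genes uncertain.

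Counts were filtered with filterByExpr and fitted with edgeR 4.0.16 (TMM, quasi-likelihood test, Benjamini-Hochberg adjustment over all 16749 tested genes) in R 4.3.3, without a replicate block. Values in CPM use the TMM-scaled library sizes, except the sums over marker lists, which use the library totals. DESeq2 1.42.0, limma 3.58.1 on log2(FPKM + 1) and log2(FPKM + 0.1), other filters, a replicate block and leaving out each library were alternatives. Ratios were taken on FPKM (for EXO1, to the geometric mean of the other members) and tested by exact permutation. On counts simulated for siEIF1 against NC, with 200 genes changed among 16544 that ran, edgeR recovered 194 (97.0%) and made 13 other calls. Recovery of differences as small as those of PMS1 and MSH6 was not tested separately. Replicates of 1 group differed by more than counting noise. P-values measure the spread between these libraries, which the study calls biological replicates.

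The genes named in the text come from EIF1, the members, their annotated neighbours (GENCODE 44), rows whose symbol starts with PMS2, up to 4 genes of each list (smallest p, at most 2 per direction) and the 3 genes most like each member. MSH4, the marker genes given by their counts alone and the absent RPE65 and TTR were named after the data were seen. The members and lists were chosen with earlier results of these data known. Promoter windows came from RefSeq. Other items that the naming rule covers are given by counts or not reported here.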

Additional observations from a re-analysis of the deposited data

How the results depend on the processing

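Over 11 results on the members, 0 of 150 alternative values reversed. Part of these could not reverse. Counts of members that passed have no direction, and the ratios with a replicate block equal the main values by construction. MSH6 no longer passed with limma on log2(FPKM + 1) without a filter (-0.22, adjusted p = 0.0843), which left 2 members lower in place of 3. EXO1 still passed at an adjusted p under 0.05 with limma on log2(FPKM + 1), but at -0.58 it was not past the fold limit. The ratio of EXO1 to the other members kept its direction and was smaller with 0.1 added to FPKM (-1.24). The level of MSH6 relative to MSH3, with a scale added after seeing the data, went from 0.992 to 2.12 in NC and from 0.750 to 1.60 in siEIF1. Leaving out 1 library at a time gave -1.70 to -1.61 for EXO1, -0.37 to -0.32 for PMS1, -0.32 to -0.22 for MSH6, 0.097 to 0.17 for MSH3, -0.22 to -0.096 for PMS2 and -0.12 to -0.050 for MLH3. For the ratios it gave -0.49 to -0.35 for MSH6 to MSH3, 0.12 to 0.24 for PMS2 to PMS1 and -1.55 to -1.48 for EXO1 to the other members. Counts over all genes moved more. Genes higher at both limits (67) became 34 with at least 10 counts in every library, 36 with DESeq2, 1 with limma on log2(FPKM + 1) with or without a filter and 15 with log2(FPKM + 0.1), and ranged from 44 (without NC replicate 1) to 93 with 1 library left out. Genes lower at both limits (219) became 19 with limma on log2(FPKM + 1), filtered or not, and ranged from 191 to 234. At an adjusted p under 0.05, the 1702 higher genes became 1067, 1071 and 588 with limma on log2(FPKM + 1), on log2(FPKM + 0.1) and with no filter, and the 1744 lower genes 826 with no filter. With 1 library left out these ranged from 1118 to 1709 and from 1124 to 1763, the lowest without siEIF1 replicate 2. Same-numbered libraries correlated weakly in their deviations (r = 0.149, 0.0946 and 0.128), so the numbers were not taken as pairs, although each library correlated best with its own number. With a replicate block, 2149 genes were higher and 2128 lower, and the members stayed at 3 lower and 0 higher. At 43 to 132 counts per library, EXO1 is the member with the least depth.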

Other observations

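Genes of the other excision repair pathways were counted in the same way, where 10.4% of all tested genes fell and 10.2% rose. Base excision repair removes single damaged bases. Of its 18 genes, 2 fell, 0 rose and 16 did not pass (median log2 fold change -0.08). Thus 11.1% passed, beside 20.6% of all tested genes. NEIL3, a DNA glycosylase linked to replicating cells, had 55, 54 and 38 counts in NC and 23, 16 and 6 in siEIF1, with all siEIF1 libraries lower (log2 fold change -1.82, SE 0.349, edgeR adjusted p = 0.00246). PARP2, a sensor of strand breaks, went from 4.27 ± 0.351 to 3.18 ± 0.142 FPKM (SD, n = 3; -0.41, 0.00216). The endonuclease APEX1 and the scaffold XRCC1 were at 0.12 and 0.16 and did not pass (edgeR adjusted p = 0.116 and 0.124).

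Nucleotide excision repair cuts out bulky lesions. Of its 22 genes, 2 fell, 5 rose and 15 did not pass (median 0.03). Here 31.8% passed, beside 20.6% of all tested genes. ERCC6, which acts where RNA polymerase has stalled, rose from 2.36 ± 0.129 to 3.30 ± 0.155 FPKM (SD, n = 3; log2 fold change 0.51, edgeR adjusted p = 3.09e-05), and XPC, which senses lesions across the genome, rose by 0.26 (0.00206). The helicase subunit ERCC3 fell by 0.24 (0.00488) and the kinase partner CCNH by 0.15 (0.0284). Differences between the lists themselves were not tested.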
